A study of Homo sapiens with 12 samples.

Results

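The 10 genes described here are immediate-early genes, taken by name from a table of 57134 genes measured in 12 libraries: FOS, FOSL1, JUN, JUNB, JUND, EGR1, IER2, IER3, ATF3 and KLF2. The rule names the genes and uses no measured value, although it was drawn up with earlier results of these data known. The libraries were made from HCT116, an established human colon carcinoma line, with MATQ-seq, which amplifies total RNA. DASHed libraries had been depleted of ribosomal RNA (rRNA) with scDASH, in which Cas9 cuts sequence derived from rRNA, and untreated libraries had not. Of the 8 single-cell libraries, each from a FACS-sorted cell, 4 were DASHed and 4 untreated; of the 4 mini-bulk libraries, 2 were DASHed and 2 untreated. No stimulus, drug or time point is named in the labels, and depletion is the only treatment that differs between the groups.

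Immediate-early genes are transcribed within minutes of a growth-factor, stress or adhesion signal, from factors already present in the cell, and their mRNAs are mostly short-lived. FOS and JUN proteins pair through leucine zippers to form AP-1, which binds promoters and enhancers of later genes, and EGR1 is a zinc-finger factor that often appears with them. In colon carcinoma lines the RAS to ERK pathway, which drives many of these genes, is often active without added serum.

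Over 7338 genes, the departures of a DASHed cell and of the untreated cell with its number from the means of their groups correlated at 0.93 in every pair, and at −0.38 to −0.23 between different numbers. The labels do not say whether libraries that share a number came from 1 cell, so the 4 numbers are called cell 1 to cell 4 here, each with a DASHed and an untreated library. Because a group of single cells names no separate cultures, it counts as 1 sample and no test between DASHed and untreated cells was run. The mini-bulk labels name no cultures either, so those p-values measure only the spread between these libraries, which may be technical. Total counts were 1018874 to 1573651 in DASHed cells and 5545355 to 6008358 in untreated cells. Mini-bulk totals were 837614 and 1087711 after depletion and 5803180 and 6026584 without it. Outside rRNA the totals lay closer together, from 714573 to 1070836 in DASHed cells and from 1077290 to 1505387 in untreated cells. Values are therefore given as CPM outside rRNA, counts scaled to a common total of all counts that are not rRNA, written CPM in what follows. All 6 epithelial markers checked had counts in each group, at a summed 1620 to 6040 CPM in DASHed cells and 1230 to 4120 CPM in untreated cells. Of 12 markers of other cell types, CD3E, LYZ, HBB, HBA1 and VWF were at 0 in all 12 libraries, and the 12 summed to at most 39.2 CPM in DASHed and 39.8 CPM in untreated cells.

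Each cell had its own combination of these genes, and both of its libraries showed that combination. Of 40 gene-by-cell values, 29 had counts in both libraries of the cell, 10 had counts in neither, and 1 had a count in 1 library only. For the 8 genes with at least 20 counts in the cells, which leaves out ATF3 and KLF2, the share with counts in 1 library only was 3.12% of 32 values, against 13.1% over all 13459 such genes. When each DASHed cell was set beside the untreated cell of another number, the shares were 21.9 and 29.8%. All 8 genes have at least 100 counts over the 8 single-cell libraries, and the background includes genes with fewer. These shares are therefore not matched for depth. The highest cell was the same in the DASHed and the untreated libraries for 8 of the 9 genes that had counts in cells, the exception being FOSL1. How many of all genes keep their highest cell was not counted, so this is not read as a trait of these genes. KLF2 is among the 8 on 3 counts in its untreated library. Summed over the 10 genes, the cells had 1628, 6740, 1945 and 2150 CPM in the DASHed libraries of cells 1 to 4. The untreated libraries of the same cells had 1018, 4561, 1453 and 1121 CPM. Cell 2 thus held the highest sum with either library type. It also had the fewest detected genes: at a common depth of 519157 counts, 9251 genes in its DASHed library against 11060 to 11465 in the other DASHed cells, and 11351 in its untreated library against 13467 to 13819. The part of that difference in the results for cell 2 was not tested.

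**Figure D1:**
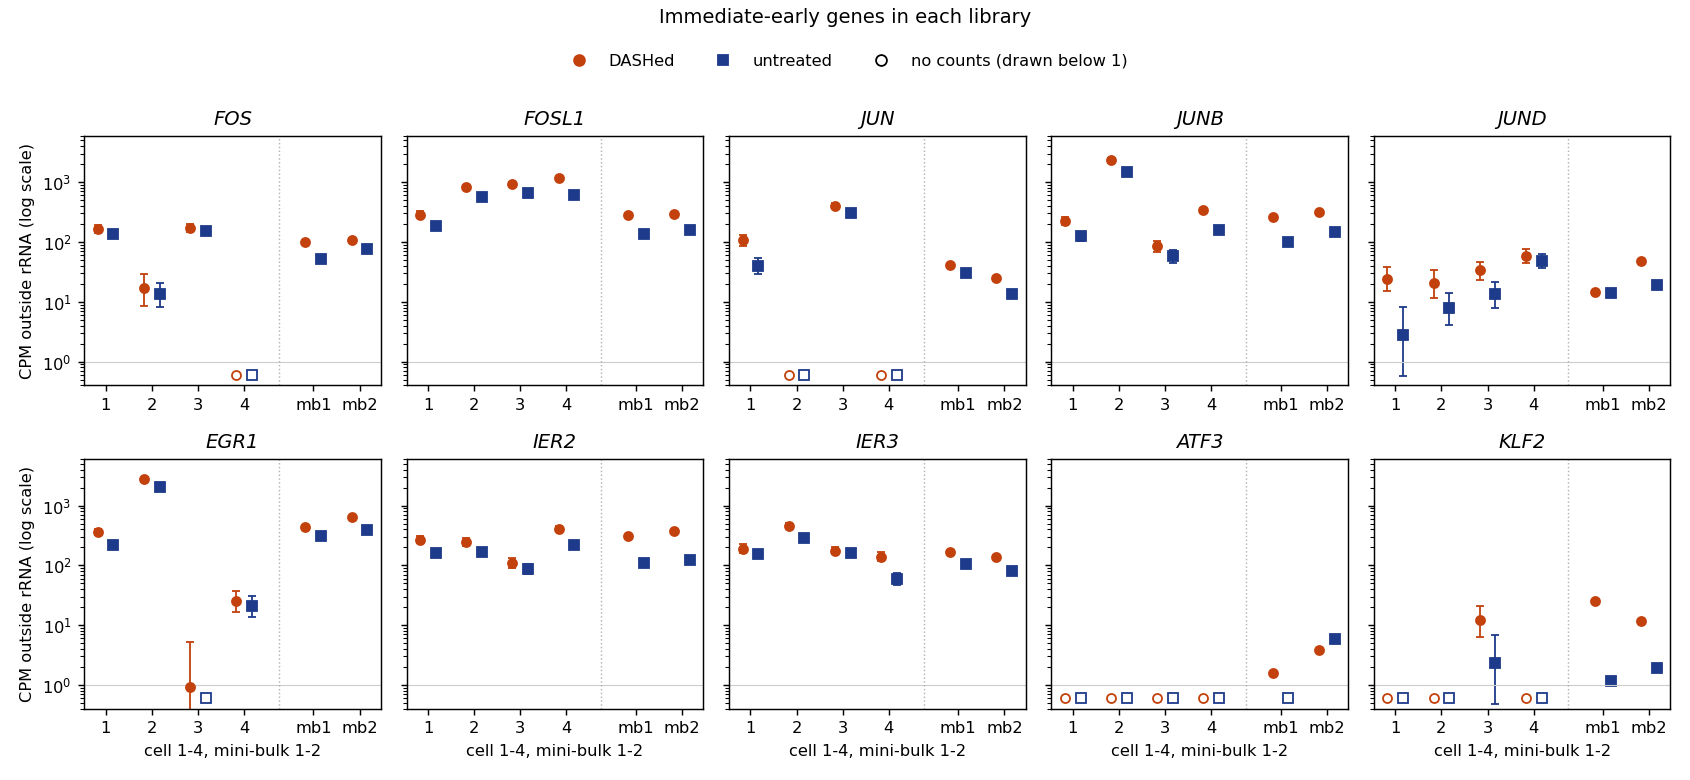
Level of each of the 10 genes in the 12 libraries, in CPM outside rRNA on a log scale, with DASHed libraries as circles and untreated libraries as squares. Bars are 95% Poisson intervals of the count and are drawn for cells only; mb1 and mb2 are the mini-bulk libraries. Open symbols are libraries without a count. EGR1 and JUNB peak in cell 2 at 2770 and 2390 CPM (DASHed), JUN in cell 3 at 405 CPM, and FOS is without counts in cell 4.

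Cell 1 carried FOS, JUN and EGR1 together. FOS, the founding AP-1 subunit, had 165 CPM in the DASHed library and 136 CPM in the untreated one. JUN, its main partner, had 107 CPM in the DASHed library and 39.9 CPM in the untreated one. EGR1 had 363 CPM and JUNB, a JUN relative that can weaken JUN activity, 227 CPM in the DASHed library, against 221 and 124 CPM in the untreated library. None of these was the highest level of its gene among the 4 cells. FOSL1, which codes for FRA-1, a FOS relative without the FOS transactivation domain, was lowest in this cell, at 285 CPM DASHed and 182 CPM untreated. JUND had 24.5 CPM from 20 counts in the DASHed library and 2.78 CPM from 3 counts in the untreated one, a ratio of 8.80 whose counting interval runs from 2.61 to 46.2. IER2, a small nuclear protein of the early response, and IER3 had 266 and 191 CPM in the DASHed library and 159 and 153 CPM in the untreated library. KLF2 and ATF3 had no counts. No gene of the 10 was at least 2-fold above each other cell in both libraries, a threshold that 8.88% of 13459 genes passed for cell 1.

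Cell 2 stood apart through EGR1 and JUNB. EGR1 reached 2770 CPM (1976 counts) in the DASHed library and 2010 CPM (3025 counts) in the untreated one. JUNB reached 2390 CPM (1710 counts) in the DASHed library and 1500 CPM (2256.6 counts) in the untreated one. Both were at least 2-fold above each other cell in both libraries, which 2 of the 8 genes with at least 20 counts did and 7.29% of all 13459 such genes did. IER3, which modulates cell survival, was also highest here, at 453 CPM DASHed and 291 CPM untreated. JUN had no count in either library, which allows up to 4.20 CPM in the DASHed and 1.99 CPM in the untreated library. Limits of this kind, and the fold bounds drawn from them below, cover counting error only and not amplification. FOS was low, at 16.8 CPM from 12 counts DASHed and 13.3 CPM from 20 counts untreated. Cell 2 therefore held high EGR1 and JUNB with little FOS and no detected JUN. FOSL1 had 841 CPM in the DASHed library and 573 CPM in the untreated one, IER2 had 249 and 167 CPM, and JUND had 21.0 and 7.97 CPM in the same order. KLF2 and ATF3 had no counts.

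Cell 3 had the highest JUN and FOS and almost no EGR1. JUN had 405 CPM (434 counts) in the DASHed library and 308 CPM (391 counts) in the untreated one, at least 2-fold above each other cell in both libraries, as 8.76% of 13459 genes were for this cell. FOS had 173 CPM DASHed and 154 CPM untreated, close to its values in cell 1. EGR1 had 1 count in the DASHed library and none in the untreated library, which allows up to 2.37 CPM there. JUNB was at its lowest, with 85.9 CPM DASHed and 57.6 CPM untreated. IER2 was lowest here too, with 109 CPM DASHed and 87.8 CPM untreated. The pattern was the opposite of that in cell 2 for JUN, FOS, EGR1 and JUNB. FOSL1 had 948 CPM in the DASHed library and 672 CPM in the untreated library, IER3 had 177 and 158 CPM, and JUND had 33.6 and 13.4 CPM in the same order. KLF2, a Krüppel-like factor known from endothelium, was seen in this cell alone, from 13 counts (12.1 CPM) in the DASHed library and 3 counts (2.37 CPM) in the untreated one.

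In cell 4 neither FOS nor JUN was detected. No count of FOS or JUN was seen in its libraries, which allows up to 2.96 CPM of each in the DASHed and 2.44 CPM in the untreated library. FOSL1 was at 1180 CPM (1195.7 counts) in the DASHed library, the highest of the DASHed cells, and at 617 CPM (759.4 counts) in the untreated one, below the 672 CPM of cell 3. JUND, a JUN relative that is present in resting cells, and IER2 were highest in cell 4. JUND had 59.2 CPM DASHed and 48.7 CPM untreated, from 60 counts each. IER2 had 407 CPM DASHed and 218 CPM untreated. JUNB had 338 CPM in the DASHed library and 157 CPM in the untreated one. EGR1 was low, at 25.6 CPM DASHed and 21.1 CPM untreated, from 26 counts each. IER3 was lowest here, with 140 CPM DASHed and 60.1 CPM untreated, and KLF2 and ATF3 had no counts. None of the 10 genes passed the 2-fold threshold for cell 4, which 9.70% of 13459 genes passed.

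Promoters are shown for the 4 genes whose levels separated the cells most clearly, EGR1 and JUNB (high in cell 2) and FOS and JUN (present in cells 1 and 3, low or at 0 in cells 2 and 4). The windows run from 250 bases before to 50 bases after the RefSeq start site (GRCh38.p14) and are printed along the gene's strand. They lie at chr5:138465229-138465528 (EGR1, plus strand), chr19:12791236-12791535 (JUNB, plus strand), chr14:75278578-75278877 (FOS, plus strand) and chr1:58783998-58784297 (JUN, minus strand). Capitals mark 3 motifs searched on both strands: the CArG box, which serum response factor binds; TGACG, a half-site of cAMP response elements; and TGACATCA, an element bound by JUN and ATF2 dimers.

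EGR1: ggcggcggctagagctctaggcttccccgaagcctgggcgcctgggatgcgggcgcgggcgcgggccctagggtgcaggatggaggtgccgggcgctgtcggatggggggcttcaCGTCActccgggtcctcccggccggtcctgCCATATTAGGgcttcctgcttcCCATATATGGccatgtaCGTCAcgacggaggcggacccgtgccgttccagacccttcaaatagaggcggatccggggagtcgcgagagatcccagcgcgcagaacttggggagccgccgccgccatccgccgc
JUNB: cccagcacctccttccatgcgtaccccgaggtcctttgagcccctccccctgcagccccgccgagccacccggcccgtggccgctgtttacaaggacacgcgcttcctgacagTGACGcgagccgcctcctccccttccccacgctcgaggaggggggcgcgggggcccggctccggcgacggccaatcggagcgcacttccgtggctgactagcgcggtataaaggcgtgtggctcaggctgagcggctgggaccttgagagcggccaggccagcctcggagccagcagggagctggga
FOS: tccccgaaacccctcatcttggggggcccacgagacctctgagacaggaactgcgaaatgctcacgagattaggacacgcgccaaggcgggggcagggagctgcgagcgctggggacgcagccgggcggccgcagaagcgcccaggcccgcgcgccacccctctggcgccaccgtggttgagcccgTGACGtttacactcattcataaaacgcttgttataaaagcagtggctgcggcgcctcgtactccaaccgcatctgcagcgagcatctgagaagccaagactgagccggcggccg
JUN: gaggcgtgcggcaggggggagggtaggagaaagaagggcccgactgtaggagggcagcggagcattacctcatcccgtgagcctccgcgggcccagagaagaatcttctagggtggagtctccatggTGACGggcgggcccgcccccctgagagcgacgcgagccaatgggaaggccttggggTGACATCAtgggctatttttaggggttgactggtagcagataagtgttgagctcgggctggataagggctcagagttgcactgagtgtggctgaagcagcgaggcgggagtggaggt

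The EGR1 window had 2 CArG boxes, at 105 to 96 and 83 to 74 bases before the start, and 2 matches of TGACG read on the opposite strand. A CArG box was present in 1.29% of 35116 promoter windows of this length. Among the 9 windows of the 8 genes with a promoter entry, only that of EGR1 had any. Sequence farther upstream was not searched, so a CArG box of another gene outside its window would not have been seen. TGACG occurred at 64 to 60 bases before the start of FOS, 137 to 133 before JUNB and 123 to 119 before JUN. It was in 6 of the 9 windows and in 24.6% of all windows. Of the 4 printed windows only that of JUN had TGACATCA, at 67 to 60 bases before the start. The motif was in 2.61% of all windows. TATAAA stood 33 to 28 bases before the start of FOS and 31 to 26 before JUNB, and was in 11.5% of all windows. A match is a run of letters and not a shown binding site.

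The FOS family was read from 2 members. FOS (chromosome 14, 75278774 to 75282230, plus strand, GRCh38, 3 exon blocks) ran in the order cell 3, cell 1, cell 2, cell 4 in both library types. Cell 3 and cell 1 did not differ beyond counting error: the intervals were 149 to 200 and 139 to 196 CPM in the DASHed libraries, and 133 to 177 and 115 to 160 CPM in the untreated ones. From cell 3 to cell 4, FOS was at least 58.4-fold lower in the DASHed libraries and at least 63.1-fold lower in the untreated ones. These bounds set cell 4 at 3 counts per library and cover counting error only. FOSL1 (chromosome 11, 65892049 to 65900573, minus strand) varied less, by 4.13-fold between the highest and the lowest DASHed cell and 3.69-fold between untreated cells. Its lowest cell was cell 1 with either library type. The mini-bulk libraries, in which a few expressing cells and a lower level in every cell cannot be told apart, had a FOS level near the middle of the cells: 99.5 and 108 CPM after depletion and 52.6 and 76.3 CPM without it. FOSL1 had 284 and 295 CPM in DASHed and 134 and 159 CPM in untreated mini-bulk. All 4 untreated cells and 3 of 4 DASHed cells had more FOSL1 than both mini-bulk libraries of their group. The annotated pseudogene FOSL1P1 shares 6.86% of the 31-base words of FOSL1, and its counts were at most 2.68% of those of FOSL1 in any library.

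The JUN family differed more between cells. JUN (chromosome 1, 58780788 to 58784327, minus strand, 1 exon) was lower than in cell 3 by at least 96.5-fold in cell 2 and at least 137-fold in cell 4 in the DASHed libraries. In the untreated libraries it was lower by at least 155-fold in cell 2 and at least 127-fold in cell 4. Counting error alone is covered by these bounds too. JUNB (chromosome 19, 12791496 to 12793315, plus strand, 1 exon) ran in the order cell 2, cell 4, cell 1, cell 3 in both library types, a 27.9-fold range in DASHed and a 26.0-fold range in untreated cells. Its cell 2 value lay 7.07-fold above the next DASHed cell and 9.56-fold above the next untreated cell. Counts of JUNB are uncertain where HOOK2, on the opposite strand, is expressed, because 14.2% of JUNB's exonic bases lie under HOOK2 exons and the handling of strand is not given. HOOK2 counts came to between 0.175 and 162% of those of JUNB, lowest in cell 2 (3 counts DASHed, 42.4 untreated) and highest in cell 3. JUND (chromosome 19, 18279760 to 18281622, minus strand, 1 exon) was highest in cell 4 in both library types and differed 2.82-fold between DASHed cells. Between untreated cells 4 and 1 the ratio was 17.5, with a counting interval of 5.71 to 87.2, since cell 1 had 3 counts. The untreated JUND intervals of cells 1, 2 and 3 overlapped one another, as did the DASHed intervals of those cells.

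EGR1 (chromosome 5, 138465490 to 138469315, plus strand, 2 exon blocks) had the widest range of the 10 genes. The order was cell 2, cell 1, cell 4, cell 3 in DASHed and in untreated libraries, and no counting intervals of neighbouring cells overlapped. Cell 2 lay 7.63-fold above cell 1 in the DASHed libraries and 9.10-fold in the untreated ones. Against cell 3 the untreated ratio was at least 849-fold, and the DASHed ratio was 2960 with a counting interval of 531 to 117000, since it rests on 1 count. Mini-bulk libraries had 444 and 634 CPM of EGR1 after depletion and 311 and 390 CPM without it. Cell 2 alone lay above both mini-bulk libraries, and the other 3 cells lay below both, in either library type.

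IER2 and IER3, whose proteins are not AP-1 subunits, varied less between cells than EGR1, JUN or JUNB. IER2 (chromosome 19, 13150415 to 13154908, plus strand) had a range of 3.73-fold in DASHed cells and 2.48-fold in untreated cells. IER3 (chromosome 6, 30743199 to 30744554, minus strand) had 3.24-fold and 4.84-fold in the same order. Neighbouring cells were often not separable: DASHed IER2 had intervals of 232 to 304 CPM in cell 1 and 214 to 289 CPM in cell 2, and DASHed IER3 had 162 to 224 CPM in cell 1 and 153 to 205 CPM in cell 3. Both genes carry antisense genes over 30.8% (IER2, AC011446.2) and 26.5% (IER3, IER3-AS1) of their exonic bases. AC011446.2 had at most 59 counts in a library, up to 27.4% of IER2, and IER3-AS1 at most 1.3 counts. In cells 1 to 4 AC011446.2 had 21.8, 0, 1.1 and 0 counts DASHed and 31.8, 18.2, 2.7 and 59 counts untreated. Differences of IER2 between library types are therefore uncertain, and the part of this overlap in them was not tested. ATF3 (chromosome 1, 212565334 to 212620777, plus strand), a stress-induced repressor and AP-1 partner, had no count in any cell. In mini-bulk it had 1 and 2 counts after depletion and 0 and 6 counts without it. KLF2 (chromosome 19, 16324817 to 16327874, plus strand) had 16 and 6 counts in DASHed mini-bulk and 1 and 2 counts in untreated mini-bulk.

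A wide range between cells was not particular to these genes. At least 10-fold separated the highest from the lowest DASHed cell for 4 of the 8 genes with at least 20 counts, and 5 of the 8 in untreated cells. Over 13459 genes the shares were 47.2% in DASHed and 54.7% in untreated cells, and over the 8738 with at least 100 counts, as all 8 genes have, 60.8 and 59.6%. The median fold was 16.0 for the 8 genes in DASHed cells and 21.8 in untreated cells. Over the 13459 genes it was 8.99 and 11.9. These medians are not matched for depth, because the 13459 include genes with fewer than 100 counts. For the genes with at least 100 counts no median fold was taken. A cell that stood at least 2-fold above each other cell in both library types was found for 3 of the 8 genes and for 34.6% of all genes. With levels scaled to all counts, rRNA included, the number with a 10-fold range between untreated cells was 5 with all cells and 3 without cell 4.

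Other early genes, on lists of AP-1 relatives, growth-factor induced genes, feedback genes and regulators of early-gene promoters, also marked single cells. Of 45 with at least 20 counts, 27 stood at least 2-fold above each other cell in both library types, against 34.6% of all genes. Cell 2 had 10 of the 27. EGR3, a close EGR1 relative, had 302 CPM in its DASHed library and 134 CPM in its untreated library, and at most 0.852 CPM in any other cell. KLF10 had 1170 CPM DASHed and 1160 CPM untreated in cell 2. SPRY4 and DUSP6, which restrain ERK signalling, had 1470 and 431 CPM in the DASHed and 1510 and 365 CPM in the untreated library. ATF2, NR4A2, PLK3, HES1, SPRED2 and ELK1 were the other 6. DUSP1, a MAP kinase phosphatase that is itself an early gene, was lowest in cell 2, at 1.40 CPM DASHed and 0 untreated, while the other cells had 112 to 269 CPM DASHed and 87.7 to 179 CPM untreated; it was picked out after its values were seen.

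Each of the other 17 stood out in 1 of the other cells. Cell 1 had FOSB, a FOS relative, at 638 CPM DASHed and 382 CPM untreated, together with FOSL2 (294 and 243 CPM) and MRTFB (263 and 364 CPM). Cell 3 had MAFK, IER5, KLF6, DUSP8, SPRY2, TNFAIP3 and ELK3, with KLF6 at 121 CPM DASHed and 176 CPM untreated, and with TNFAIP3, an NF-kappaB feedback gene, at 79.4 CPM DASHed and 48.9 CPM untreated and at 0 in every other cell. Cell 4 had JDP2, NR4A1, KLF4, BTG1, GADD45A, SPRED1 and CREB1. NR4A1, an orphan nuclear receptor, had 309 CPM DASHed and 175 CPM untreated there. Exons of other genes cover over 10% of DUSP6, NR4A1, BTG1 and MAFK, whose counts are uncertain for that reason.

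**Figure D2:**
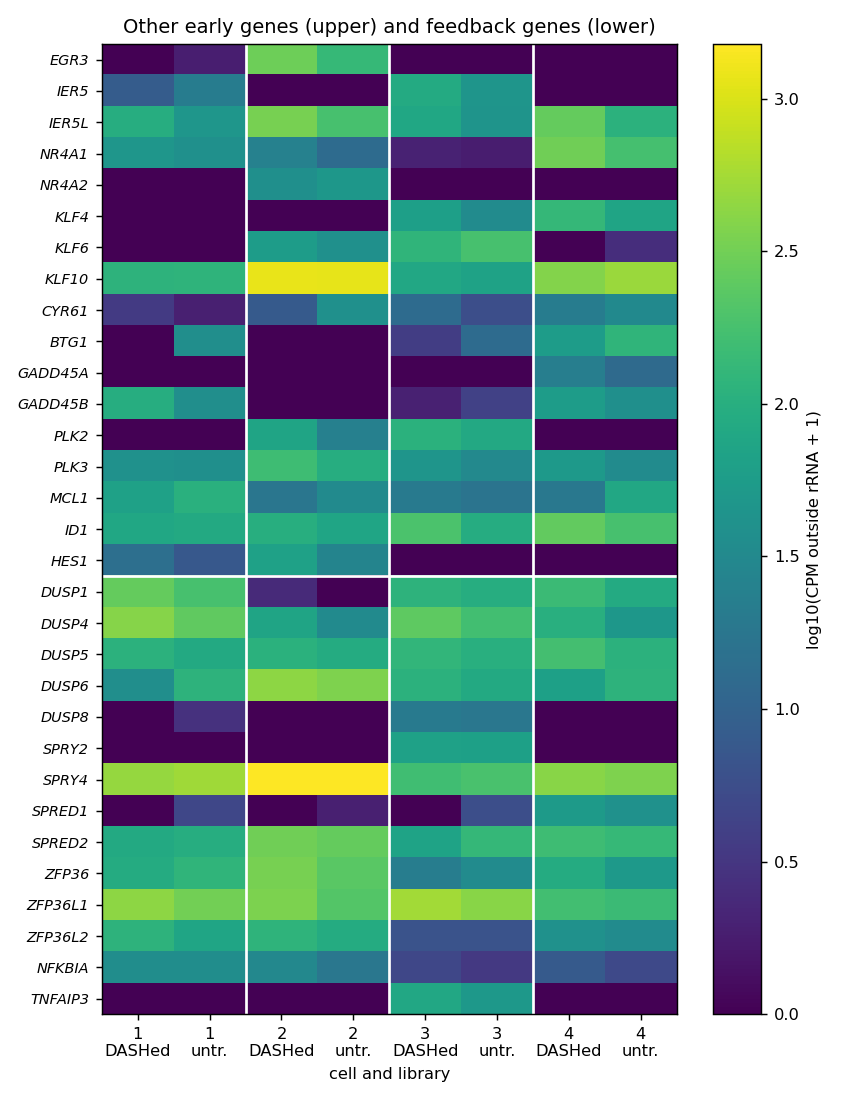
Other early genes (upper block) and feedback genes (lower block) in the 8 single-cell libraries, as log10 of CPM outside rRNA plus 1; columns run from cell 1 to cell 4 with the DASHed library left of the untreated one. The 2 columns of a cell resemble each other; EGR3, KLF10 and SPRY4 are bright in cell 2 and TNFAIP3 has colour in cell 3 alone.

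The depletion comparison asked whether removal of rRNA sequence left the levels of other genes as they were. In the cells, each of the 29 values with counts in both libraries was higher in the DASHed library, with ratios of 1.12 to 8.80. The counting interval lay above 1 for 21 of the 29. Over all genes with counts in both libraries of a cell, 46.0% were higher in the DASHed library. The median ratio was 1.65 in cell 1, 1.49 in cell 2, 1.36 in cell 3 and 1.89 in cell 4, over the 8, 7, 8 and 6 genes with counts in both libraries. Over all genes with counts in both it was 0.889, 0.922, 0.928 and 0.852. FOSL1 ratios ran from 1.41 to 1.91, JUNB from 1.49 to 2.16 and IER2 from 1.25 to 1.87. FOS had the smallest ratios, 1.12 to 1.26 in 3 cells, and each of the 3 intervals included 1.

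**Figure D3:**
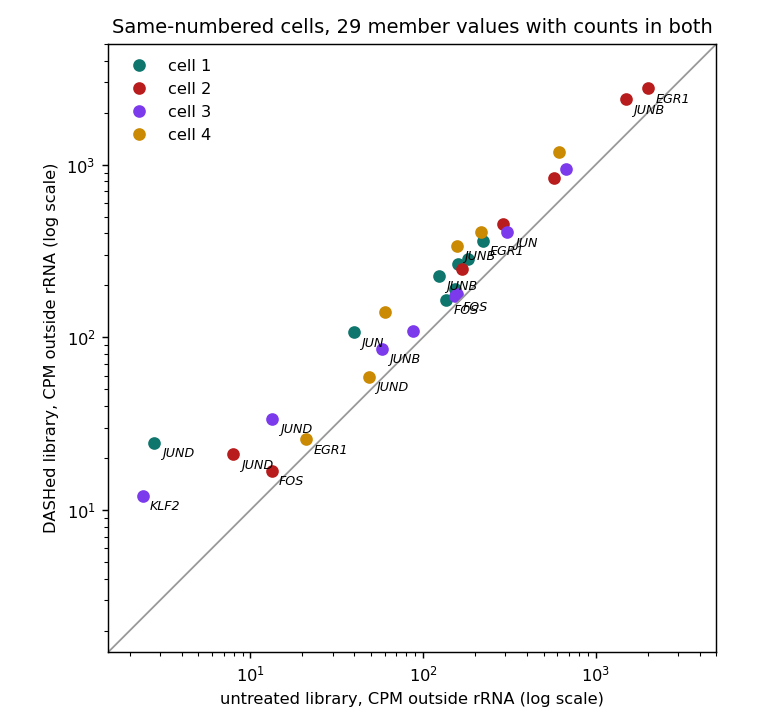
Each point is 1 gene in 1 cell, with the DASHed library on the vertical and the untreated library on the horizontal axis (CPM outside rRNA, log scales); the line marks equal values. All 29 points lie above the line, from KLF2 and JUND at the low end to EGR1 and JUNB of cell 2 at 2770 and 2390 CPM (DASHed).

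Averaged over the 4 cells as CPM of all counts, rRNA included, on the log2(CPM + 1) scale and relative to the median of 13469 genes, the 8 genes with at least 20 counts lay between 0.74 (FOS) and 1.13 (JUND) higher in DASHed cells, with a median of 1.05. Of the 8, 5 were at least 2-fold higher and none at least 2-fold lower, against 12.4 and 23.6% of all genes. The ratio of the cells' mean CPM outside rRNA, with each cell weighted equally, was 1.17 for FOS, 1.40 for EGR1, 1.45 for IER3, 1.47 for JUN, 1.59 for FOSL1, 1.64 for IER2, 1.66 for JUNB and 1.90 for JUND. With the counts of the cells pooled instead, EGR1 had a ratio of 0.983 (counting interval 0.931 to 1.04) and JUNB one of 1.23 (1.17 to 1.30), and the other 6 genes had ratios of 1.29 (FOS) and above. Pooled counts weight cells by depth, and cell 2, which holds most EGR1 and JUNB counts, had the fewest counts outside rRNA of the DASHed cells (714573) and the most of the untreated cells (1505387). Transcript GC content moved with these differences: its Spearman correlation with the ratio of the averaged cells was 0.708 across 13428 genes, which are not independent replicates. These 8 genes have 55.4% (EGR1) to 69.7% (JUND), where the median of the genes tested in mini-bulk is 51.4%; KLF2 has 66.8% and ATF3 50.9%. Measured from the GC trend of all genes, added after the data were seen, the median of the 8 genes was 0.34, from 0.01 (FOS) to 0.53 (JUN). Within cells 1 to 4, for genes with at least 20 counts in that cell, the median was 0.26, 0.17, 0.16 and 0.43. Above the trend lay 6 of 8 genes in cell 1, 6 of 7 in cell 2, 4 of 7 in cell 3 and 4 of 6 in cell 4. Leaving out untreated cell 4 gave a median of 0.62 in place of 1.05.

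The mini-bulk libraries, with 2 in each group, allowed a test with edgeR, scaled with TMM factors. Of the 10 genes, 9 passed the filter on low counts; ATF3 did not, and KLF2 passed it through its DASHed counts alone. IER2, JUNB and FOSL1 rose after depletion, 3 of the other 8 genes, and none of the 8 fell, against 29.7% of 10083 genes past the threshold in either direction, 9.90% higher and 19.8% lower. IER2 averaged 337 ± 46.3 CPM in DASHed and 118 ± 9.91 CPM in untreated libraries (SD, n = 2 each), a log2 change of 1.39 (SE 0.21, edgeR adjusted p = 0.00192). JUNB averaged 292 ± 41.4 CPM in DASHed and 124 ± 34.8 CPM in untreated libraries, a log2 change of 1.11 (SE 0.25, edgeR adjusted p = 0.0103). FOSL1 averaged 289 ± 7.46 CPM in DASHed and 147 ± 17.5 CPM in untreated libraries, a log2 change of 0.86 (SE 0.20, edgeR adjusted p = 0.0122). In each of these the DASHed libraries lay above both untreated ones. The IER2 change is uncertain, since its antisense gene AC011446.2 had 5.3 and 0 counts in DASHed and 26.0 and 27.4 in untreated libraries. KLF2 had 22 counts in the DASHed and 3 in the untreated libraries, a ratio of 12.1 with a counting interval of 3.65 to 63.3, and a fitted log2 change of 3.33 (SE 0.81, edgeR adjusted p = 0.0152). Since a gene with such counts enters the test only when its DASHed counts are high, this call is given as a description.

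The other 5 tested genes did not pass in this fit, which does not pair libraries by number. With the replicate number as a block EGR1, IER3 and FOS passed, and with block and GC offsets they did not. EGR1 averaged 539 ± 134 CPM in DASHed and 351 ± 55.8 CPM in untreated libraries (log2 change 0.50, SE 0.21, edgeR adjusted p = 0.106). IER3 had a log2 change of 0.62 (SE 0.26, adjusted p = 0.0978) and FOS one of 0.56 (SE 0.30, adjusted p = 0.186). DASHed libraries lay above both untreated libraries for EGR1, IER3 and FOS, as for IER2, JUNB and FOSL1. The same held for KLF2, which entered the test through its DASHed counts alone. Of 10074 tested genes outside rRNA, 35.6% lay higher in that way and 34.3% lower. JUN had 41.7 and 25.0 CPM in DASHed and 30.4 and 13.5 CPM in untreated libraries, and JUND had 14.4 and 48.2 CPM in DASHed and 14.0 and 19.3 CPM in untreated libraries. The groups overlapped for both genes, with log2 changes of 0.51 (JUN, SE 0.55, adjusted p = 0.494) and 0.76 (JUND, SE 0.64, adjusted p = 0.388). The median log2 change was 0.69 over the 8 genes other than KLF2, 0.76 with it, and 0.03 over all genes.

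**Figure D4:**
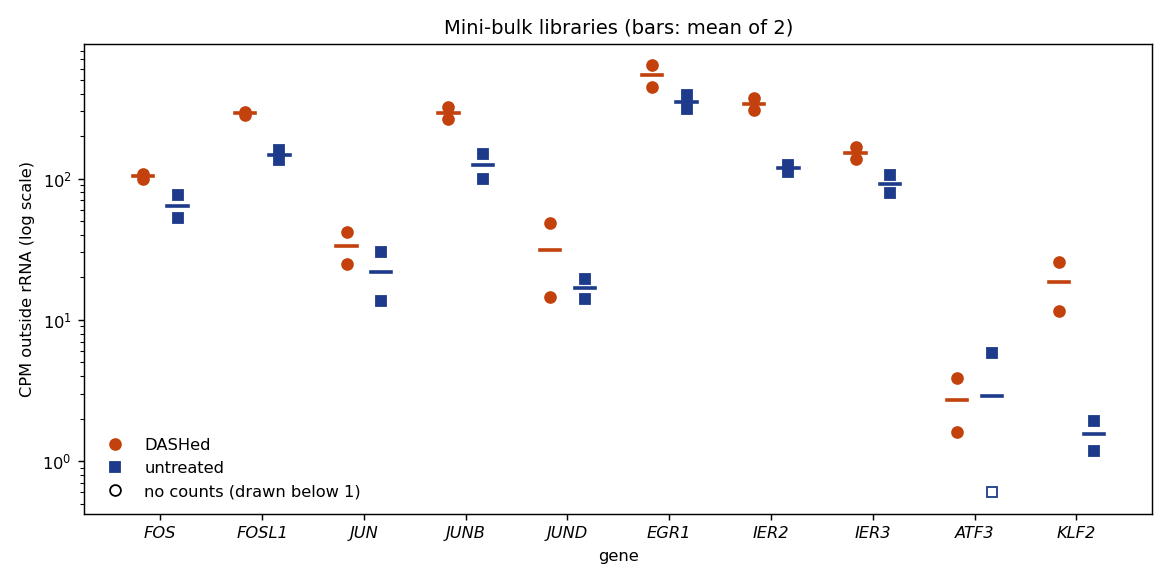
Mini-bulk levels of the 10 genes in CPM outside rRNA (log scale), DASHed libraries as circles left of untreated libraries as squares; bars are means of 2 libraries. IER2 (337 against 118 CPM) and FOSL1 (289 against 147 CPM) have clear gaps between groups, JUN and JUND overlap, and 1 untreated library has no ATF3 count.

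GC content stood beside the mini-bulk changes as well. Across 10053 genes the log2 change had a Spearman correlation of 0.789 with transcript GC content. With GC offsets in the edgeR fit 0 of the 9 genes passed the threshold, against 3.83% of all genes, and 9 of 9 passed it with scaling to total counts alone, against 66.6% of all genes higher. That scaling put the median of all genes at 2.04. Relative to it the 8 genes other than KLF2 lay 0.47 (EGR1) to 1.37 (IER2) higher, and KLF2 lay 3.24 higher. The log2 changes with GC offsets were 0.67 for IER2 (edgeR adjusted p = 0.0952), 0.38 for JUNB (adjusted p = 0.447), 0.18 for FOSL1 (adjusted p = 0.716) and 2.65 for KLF2 (adjusted p = 0.131). FOS was at −0.11 and JUND at −0.01 in that fit, and the median was 0.08 over the 8 genes, 0.13 with KLF2, and 0.06 over all genes. Leaving out 1 untreated library leaves 1, which the fit takes to vary as the DASHed libraries do, and widens the standard errors. Without untreated mini-bulk library 1, FOSL1 (log2 change 0.60, SE 0.34, adjusted p = 0.251), JUNB (0.72, SE 0.35, adjusted p = 0.152) and KLF2 (2.92, SE 2.09, adjusted p = 0.397) did not pass. Without untreated library 2, FOSL1 (0.78, SE 0.35, adjusted p = 0.117) and KLF2 (3.49, SE 2.23, adjusted p = 0.32) did not pass although their log2 changes were near those with all libraries, whereas IER2 passed with any 1 of the 4 libraries left out.

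**Figure D5:**
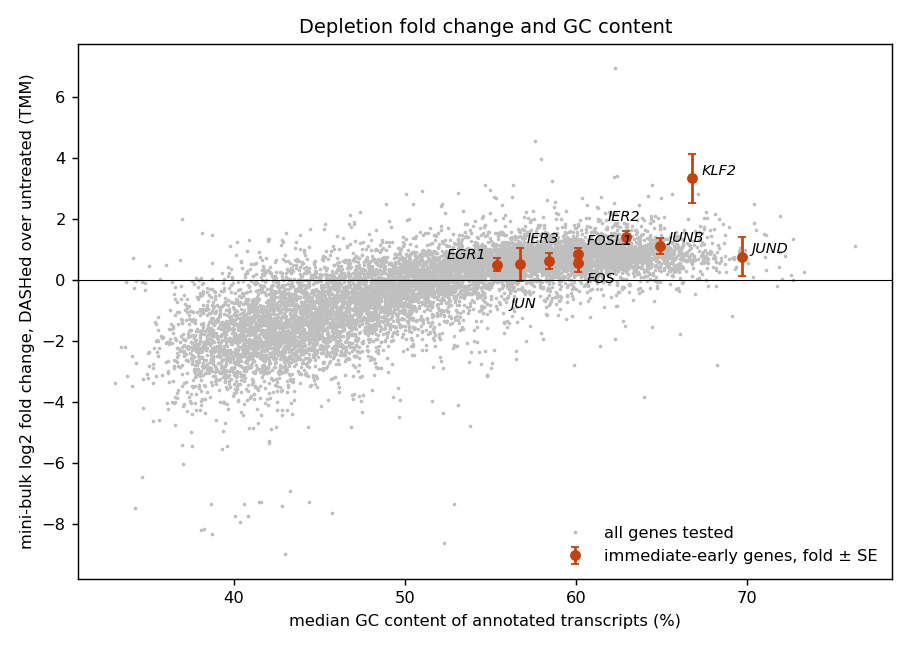
Mini-bulk log2 change, DASHed over untreated libraries with TMM scaling, against the median GC content of each gene's annotated transcripts. Grey points are all genes tested and orange points are the 9 immediate-early genes with their standard error; these sit at 55.4 to 69.7% GC, above 0, and most lie within the grey band, with KLF2 above it at 3.33.

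Among the other early genes 8 of 40 passed the mini-bulk test, against 29.7% of all genes, 4 of them higher and 4 lower after depletion. Of 6 tested AP-1 relatives, MAFG, a small MAF partner, rose (log2 change 0.79, SE 0.21, edgeR adjusted p = 0.0215), and ATF2 (−3.18, SE 0.48, adjusted p = 0.00208) and ATF7 (−1.53, SE 0.32, adjusted p = 0.00873) fell. ATF7 shares 18.2% of its exonic bases with a gene on its own strand and 25.6% with an antisense gene. Of 14 growth-factor induced genes 1 rose, IER5L (1.47, SE 0.26, adjusted p = 0.00437), which also lies under antisense genes. Of 13 feedback genes 1 rose, DUSP4, a MAP kinase phosphatase (0.70, SE 0.22, adjusted p = 0.037). Of 7 regulators of early-gene promoters 1 rose and 2 fell: ELK1 (0.80, SE 0.24, adjusted p = 0.0359), ELK4 (−1.79, SE 0.24, adjusted p = 0.00116) and CREB1 (−1.39, SE 0.46, adjusted p = 0.049). The list medians were 0.48, 0.25, 0.28 and 0.55 in that order, against 0.03 over all genes. With GC offsets ATF2 and ELK4 still passed and the other 6 of these 8 did not. Median GC contents of the transcripts were 53.9 to 65.0% for the 4 genes that rose and 44.6 to 49.4% for the 4 that fell.

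Levels in cells and mini-bulk libraries could be set side by side for each gene and library type. The mini-bulk mean fell within the range of the 4 cells in 16 of 20 such pairs. Outside it were FOSL1 without depletion, where cells had 182 to 672 CPM and the mini-bulk mean was 147 CPM, ATF3 with and without depletion, and KLF2 after depletion, where cells had up to 12.1 CPM and the mini-bulk mean was 18.6 CPM. ATF3 had no count in any cell, and KLF2 had counts in cell 3 alone. The same share over all genes was not computed, so 16 of 20 is not read as a trait of these genes. The cells' mean was 3.83-fold (DASHed) and 3.96-fold (untreated) the mini-bulk mean for JUN and 2.60-fold and 3.70-fold for JUNB, with 78.6 to 88.5% of the cells' sum in 1 cell. For JUND it was 1.10-fold and 1.09-fold. The number of cells in a mini-bulk input is not given in the labels.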

How the data were processed

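Expression was deposited by the authors as estimated counts for each gene in 12 libraries, without scaling for depth; fractional numbers make up 31.1 to 55.9% of a library's nonzero values. Per the submitters' processing notes, kallisto 0.46.2 was used. Not given in the sources used here are the build, the annotation, how strand was treated and how transcripts were summed to genes. kallisto shares reads among transcripts that could have produced them, so overlapping and near-identical genes depend on each other. Of the 57134 names, 57079 match GENCODE v29 (GRCh38), which supplied coordinates, overlaps and GC content.

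The 10 genes, the other gene lists and the tests were chosen with earlier results of these data known. The rule for named genes took all 10, up to 3 genes of largest change past the threshold from each other list, and the 5 genes most like the summed 10 over the single-cell libraries; genes that passed a 2-fold threshold for 1 cell are named in full.

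rRNA was 547 named genes, 87 of them with counts, and 4 lincRNA genes that lie inside 18S rRNA genes. It took 29.87 to 38.43% of counts in DASHed cells and 72.85 to 81.29% in untreated cells, and 38.02 and 42.71% in DASHed and 82.15 and 85.81% in untreated mini-bulk libraries. CPM was computed over the remaining counts. Intervals are exact 95% Poisson intervals and cover counting error only, and a library without a count was set at 3 counts. MATQ-seq values here are not known to be counts of molecules, so the intervals do not cover amplification.

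Mini-bulk estimated counts were rounded and tested with edgeR 4.0.16 in R 4.3.3 (quasi-likelihood test; TMM factors 1.96 and 2.09 in the DASHed group, 0.442 and 0.553 in the untreated group), the default filter and Benjamini-Hochberg adjustment over 10083 genes at 0.05. The procedure was tested on simulated counts that had no GC trend and no rRNA difference between groups. It recovered 26.9, 83.6 and 97% of genes with a true log2 change of 1, 2 and 3 in size. Of unchanged genes it called 0.052%. DESeq2 1.42.0, other scalings, GC offsets (a smooth trend with span 0.3), the replicate number as a block and left-out libraries were alternatives. Single-cell libraries that share a number correlated at 0.93 in their deviations, so the numbers were taken to pair them, from the data alone. Promoters come from the RefSeq table (GRCh38.p14), which holds 8 of the 10 genes.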

Additional observations from a re-analysis of the deposited data

Results flagged for a closer look

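Within each group of 4 cells, the gap from the highest or lowest library to its nearest neighbour was set against the range of the group, for 18 sets of values (9 genes in DASHed and in untreated cells). In 8 of the 18 that share was above the 95% limit of Dixon's test for 4 values, used here as a screen of values and not as a test of a condition. Under a normal spread chance flags about 1 in 20 groups, but among all genes with at least 20 counts 30.7% were past the limit in DASHed cells and 26.0% in untreated cells. KLF2 is among the flagged genes in both library types by construction. It has fewer than 20 counts and so lies outside that background. The genes and library types are not independent of each other.

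Cell 2 was far above the other cells for EGR1, at 2770 CPM in its DASHed library (gap over range 0.869) and 2010 CPM in its untreated library (0.89). It was far above them for JUNB as well, at 2390 CPM in its DASHed library (0.891) and 1500 CPM in its untreated library (0.931). IER3 of cell 2 stood apart at 453 CPM in the DASHed library (0.837), and its untreated value was not past the limit.

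Cell 3 was far above the other cells for JUN in the untreated library, at 308 CPM (0.871). It was the only cell with KLF2, at 12.1 CPM in the DASHed library and 2.37 CPM in the untreated one; the gap over range is then 1.0 by construction, and the untreated value rests on 3 counts.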

How the results depend on the processing

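Of the 10 genes, 4 passed the mini-bulk threshold, against 9 with total counts alone and 0 with GC offsets. KLF2, which entered the test through its DASHed counts alone, is among the 4 and among the 9. Scaling with DESeq2 size factors and testing without a filter gave 4. Leaving out rRNA genes and the DESeq2 test gave 3. Leaving out 1 library gave 1 to 5, with 1 without untreated library 1 and 2 without untreated library 2. Over all genes 2997 passed (998 higher, 1999 lower), 6856 with total counts alone (6718 higher, 138 lower), 386 with GC offsets, and 1417 to 3450 with 1 library left out (1417 and 1426 without untreated libraries 1 and 2). Of the other early genes 8 passed, 34 with total counts alone, 13 without rRNA genes, 5 with DESeq2, 4 with GC offsets (2 of the 8, and KLF10 and ELK3), and 4 to 14 with 1 library left out (14 without DASHed library 1, 4 and 5 without untreated libraries 1 and 2). Total counts alone moved the median of all genes to 2.04 on the log2 scale.

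The mini-bulk numbers were not taken to pair libraries: with only 2 pairs, the deviations correlated at 0.47. With the replicate number as a block, 7 of the 10 genes, 5403 of all genes and 20 of the other early genes passed; with the block and GC offsets, 2, 1646 and 11 did. EGR1, FOS and IER3 were added by the block.

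The log2 change of FOS turned to −0.11 with GC offsets and −0.10 with block and offsets, that of JUND to −0.01 and −0.04, and −0.21 without DASHed library 2, and that of JUN to −0.19 without untreated library 2 (up to 1.04 with another library left out); none of these passed the threshold in either direction. Without DASHed library 1, EGR1 (0.88, edgeR adjusted p = 0.00692) and JUND (1.54, adjusted p = 0.049) passed, and without DASHed library 2 IER3 did (0.88, adjusted p = 0.0493). Without rRNA genes KLF2 was not tested, and DESeq2 gave it no adjusted p.

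The single-cell median of 1.05 was 0.61 with CPM outside rRNA uncentred, 2.16 with CPM of all counts uncentred, 1.88 relative to the median of every gene with a count, 1.66 as the mean over same-numbered pairs (replicate block), 0.34 relative to the GC trend (added after the data were seen), and 0.62 to 1.30 with 1 library left out, lowest without untreated cell 4. The number of genes with a 10-fold range between untreated cells, scaled to all counts, was 5, and 3 to 5 with 1 cell left out (added after the data were seen; 3 without cell 4). The mini-bulk mean lay within the cells' range in 16 of 20 pairs, and in 13 to 16 with 1 cell left out. Where a value moved, the cause was not tested. With 2 mini-bulk libraries a group and 0 to 26 counts for ATF3, KLF2, JUND and JUN, small changes of these genes were not detectable at this depth.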

Other observations

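POLR2A, the largest subunit of RNA polymerase II, and LIF, a cytokine of the interleukin 6 family, were among the 5 genes whose levels over the 8 single-cell libraries were most like the summed level of the 10 immediate-early genes. Likeness was Pearson's r of log2(CPM + 10) among 7330 genes with at least 20 counts on average; same-numbered libraries are not independent points, and no p is given. STK11IP had r = 0.997, CDR2L 0.986, LIF 0.983, LLGL1, a cell polarity gene, 0.982 and POLR2A 0.981. All 5 were highest in cell 2. POLR2A had 3350 CPM in the DASHed and 2240 CPM in the untreated library of cell 2, against 1420 to 1440 CPM in the other DASHed and 963 to 1030 CPM in the other untreated cells. LIF had 397 CPM in the DASHed and 323 CPM in the untreated library of cell 2, against 143 to 212 CPM and 119 to 159 CPM. Without the libraries of cell 2, the 2 farthest from the median, r was 0.98 for STK11IP and 0.90 to 0.92 for the other 4. In those 6 libraries the summed level was 1628 to 2150 CPM DASHed and 1018 to 1453 CPM untreated. POLR2A was nearly flat between these cells within each library type. How far r without cell 2 rests on the difference between library types was not tested. The 5 genes were picked by r over all 8 libraries, these included. Among all candidates 156 genes had r above 0.9.

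The 10 genes were not alike among themselves over the same 8 libraries. JUNB (r = 0.89), IER3 (0.85) and EGR1 (0.68) followed the sum, which they are part of, and FOSL1 (0.45) and IER2 (0.22) did so less. JUND was at −0.04, and FOS (−0.33) and JUN (−0.43) ran against it. The median r of all candidate genes was itself negative, at −0.183, so a negative r is not particular to these genes. How far these values rest on the cell with the highest sum was not tested.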
